A study of Homo sapiens with 9 samples.

Results

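The replication-dependent histone genes of SKBR3 cells, a human breast cancer line with amplified ERBB2, are described here. They were chosen by symbol, as every gene of the deposited expression table whose name starts with HIST1H, HIST2H, HIST3H or HIST4H. This gave 66 genes of the 20812 in the table: 6 of the H1 family, 15 H2A, 20 H2B, 12 H3 and 13 H4 genes, with 2 pseudogenes among the H2B genes. The cells were transfected for 48 h with 10 nM of PVRL4 siRNA 2, of PVRL4 siRNA 1 (both from Integrated DNA Technologies) or of a non-targeting control siRNA (ON-TARGETplus), each carried by Lipofectamine RNAiMAX, in 3 libraries per group. PVRL4 encodes nectin-4, a cell adhesion protein, and the series concerns the control of its expression by a FOS family protein. RNA was measured with Ion AmpliSeq Transcriptome, which amplifies 1 short stretch of each gene from total RNA, and the table gives RPM, a gene's reads scaled to a common library total. The labels do not say whether the 3 libraries of a group were grown separately, and each p-value therefore reflects the variation among these libraries alone, which may be technical.

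Histone genes of this kind are copied into RNA mainly while DNA is replicated, and they supply the proteins that wrap the new DNA. H2A, H2B, H3 and H4 form the core of the nucleosome, and H1 binds the linker DNA between nucleosomes. Most of the genes lie in clusters, many H2A and H2B genes start back to back, and their mRNAs end in a short stem-loop in place of a poly(A) tail. NPAT, a co-activator driven by cyclin E and CDK2, turns the clusters on, and SLBP binds the stem-loop and governs processing, translation and decay of the mRNA.

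The stem-loop is shown first, because it is the sequence these mRNAs share. It was found within the GENCODE transcripts of 25 of the 66 genes, beginning 23 to 57 bases after the stop codon. For 26 genes the longest model ran at least 60 bases past the stop, and 24 of those held it. The 16-base core came in 5 forms, each shown here at 1 gene with its flanks in lower case and the core in capitals, as DNA of the sense strand. The form of HIST2H2BE was found in 13 genes, those of HIST1H2BD and HIST1H4H in 5 genes each, and those of HIST1H2AG and HIST1H4I in 1 gene each.
HIST2H2BE: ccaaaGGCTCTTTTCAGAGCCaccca
HIST1H2BD: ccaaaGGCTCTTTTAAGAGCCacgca
HIST1H4H: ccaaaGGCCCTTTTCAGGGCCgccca
HIST1H2AG: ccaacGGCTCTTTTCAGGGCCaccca
HIST1H4I: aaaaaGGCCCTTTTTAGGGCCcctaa

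Promoters are shown for 4 genes on which later results turn: HIST1H3B, which had the highest level; HIST1H4H, an H4 gene called between the siRNAs when the replicate number was a block; and HIST1H2AG and HIST1H2AM, which start back to back with far less abundant H2B genes. All are on chromosome 6, from RefSeq on GRCh38.p14, 250 bases before to 50 bases after the start, 5′ to 3′ on the strand of the gene. The windows are chr6:26032050-26032349 (minus strand), chr6:26285485-26285784 (minus), chr6:27132793-27133092 (plus) and chr6:27893136-27893435 (minus). Capitals mark, on either strand, the TATA box (TATAAA), the CCAAT box (CCAAT), the octamer bound by POU2F1 (ATTTGCAT) and the core of the H4 gene element bound by HINFP (GGTCC). Matches that touch or overlap run together.
HIST1H3B: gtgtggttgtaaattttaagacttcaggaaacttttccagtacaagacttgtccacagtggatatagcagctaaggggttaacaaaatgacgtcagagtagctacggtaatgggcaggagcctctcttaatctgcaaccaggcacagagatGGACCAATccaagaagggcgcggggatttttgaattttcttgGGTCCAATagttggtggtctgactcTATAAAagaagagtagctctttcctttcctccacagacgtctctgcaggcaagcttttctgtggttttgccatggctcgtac
HIST1H4H: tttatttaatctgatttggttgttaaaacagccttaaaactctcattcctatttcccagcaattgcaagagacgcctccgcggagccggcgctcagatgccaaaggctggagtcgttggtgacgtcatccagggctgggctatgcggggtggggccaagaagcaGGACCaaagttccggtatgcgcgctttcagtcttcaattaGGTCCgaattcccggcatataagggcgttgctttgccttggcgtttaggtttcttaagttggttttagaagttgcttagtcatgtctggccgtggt
HIST1H2AG: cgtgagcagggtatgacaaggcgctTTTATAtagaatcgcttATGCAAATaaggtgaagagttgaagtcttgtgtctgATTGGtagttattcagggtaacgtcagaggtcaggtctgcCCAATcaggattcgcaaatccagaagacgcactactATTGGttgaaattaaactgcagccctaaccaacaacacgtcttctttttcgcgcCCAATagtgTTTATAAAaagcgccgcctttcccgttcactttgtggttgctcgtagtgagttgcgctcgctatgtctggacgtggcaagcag
HIST1H2AM: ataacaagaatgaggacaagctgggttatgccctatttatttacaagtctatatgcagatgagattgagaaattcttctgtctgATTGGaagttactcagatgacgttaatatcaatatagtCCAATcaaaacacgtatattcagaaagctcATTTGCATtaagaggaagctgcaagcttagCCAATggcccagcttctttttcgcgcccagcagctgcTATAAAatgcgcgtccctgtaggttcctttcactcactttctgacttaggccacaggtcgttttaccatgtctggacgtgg

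The families differed in which of these motifs their promoters held. RefSeq gave a promoter for 59 of the 66 genes. A TATA box was in 66.1% of them, against 11.95% of all 27305 promoters of the same length. The CCAAT box was in every H1, H2A, H2B and H3 promoter and in 3 of 11 H4 promoters, which made 86.4% of the histone promoters against 35.7% of all promoters. The octamer was in 11 of 14 H2A and 14 of 18 H2B promoters, in 1 of 10 H3 promoters and in none of the H1 or H4 promoters, or 44.1% of the histone promoters against 1.80% of all. The 5 letters of the H4 element were in 10 of 11 H4 promoters, but in 32.2% of all the histone promoters and in 46.1% of all promoters, so they are common in windows of this length. A match is a run of letters and not a shown binding site, and neighbouring H2A and H2B genes share part of their windows.

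The library totals ran between 10017130 and 10707777 reads, so that 1 read was worth about 0.1 RPM and 3 reads, used as the limit that a count of 0 allows, came to 0.280 to 0.299 RPM. PVRL4 had 3.39, 2.91 and 2.58 RPM with siRNA 2, 5.99, 4.36 and 4.67 RPM with siRNA 1, and 9.93, 7.86 and 11.6 RPM with control siRNA. The log2 change against control was -1.44 ± 0.19 (SE) with siRNA 2 (adjusted p = 0.00224, limma) and -0.84 ± 0.19 with siRNA 1 (adjusted p = 0.0601, and 0.0132 with the replicate number as a block). Of 27 tested interferon response genes, 23 were called higher with siRNA 1 than with control, where 0.851% of all genes were called in either direction. With siRNA 2 against control 0 were called, against 0.681% of all genes, though 23 of the 27 estimates were above 0, with a median log2 change of 0.29. The 28 listed genes of this response summed to 8009, 1298 and 3805 RPM in the siRNA 1 libraries. The part of that response in the histone levels was not tested. The 8 SKBR3 markers, ERBB2 and keratins among them, summed to 8815 to 9295 RPM with siRNA 2, 10174 to 10611 RPM with siRNA 1 and 10386 to 11113 RPM with control, so that the siRNA 2 libraries lay under all others. Only 7 of the 8 markers averaged at least 1 RPM and were tested. With the block, 2 of the 7, KRT8 and ERBB2, were lower with siRNA 2 than with siRNA 1, where 6.52% of all genes were. KRT8 was also lower with siRNA 2 than with control. The part of these differences in the histone results was not tested. The 12 markers of blood, vessel and connective tissue cells summed to 9.35 to 15.8 RPM, with the leukocyte marker PTPRC at 0 in all 9 libraries. Of the 12, 2 averaged at least 1 RPM and were tested, the fibroblast marker COL1A1 and the endothelial marker CDH5, and 0 were called.

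Histone RNA was abundant in these cells and was carried by a part of the family. The 66 genes together made 0.875% to 1.34% of all reads in a library. Averaged over the 9 libraries, 32 of them reached 100 RPM, 45 reached 10 RPM, and 57 reached 1 RPM and entered the tests. Because each gene has its own amplicon and no gene length enters the values, levels of different genes compare read shares and not molecules.

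**Figure D1:**
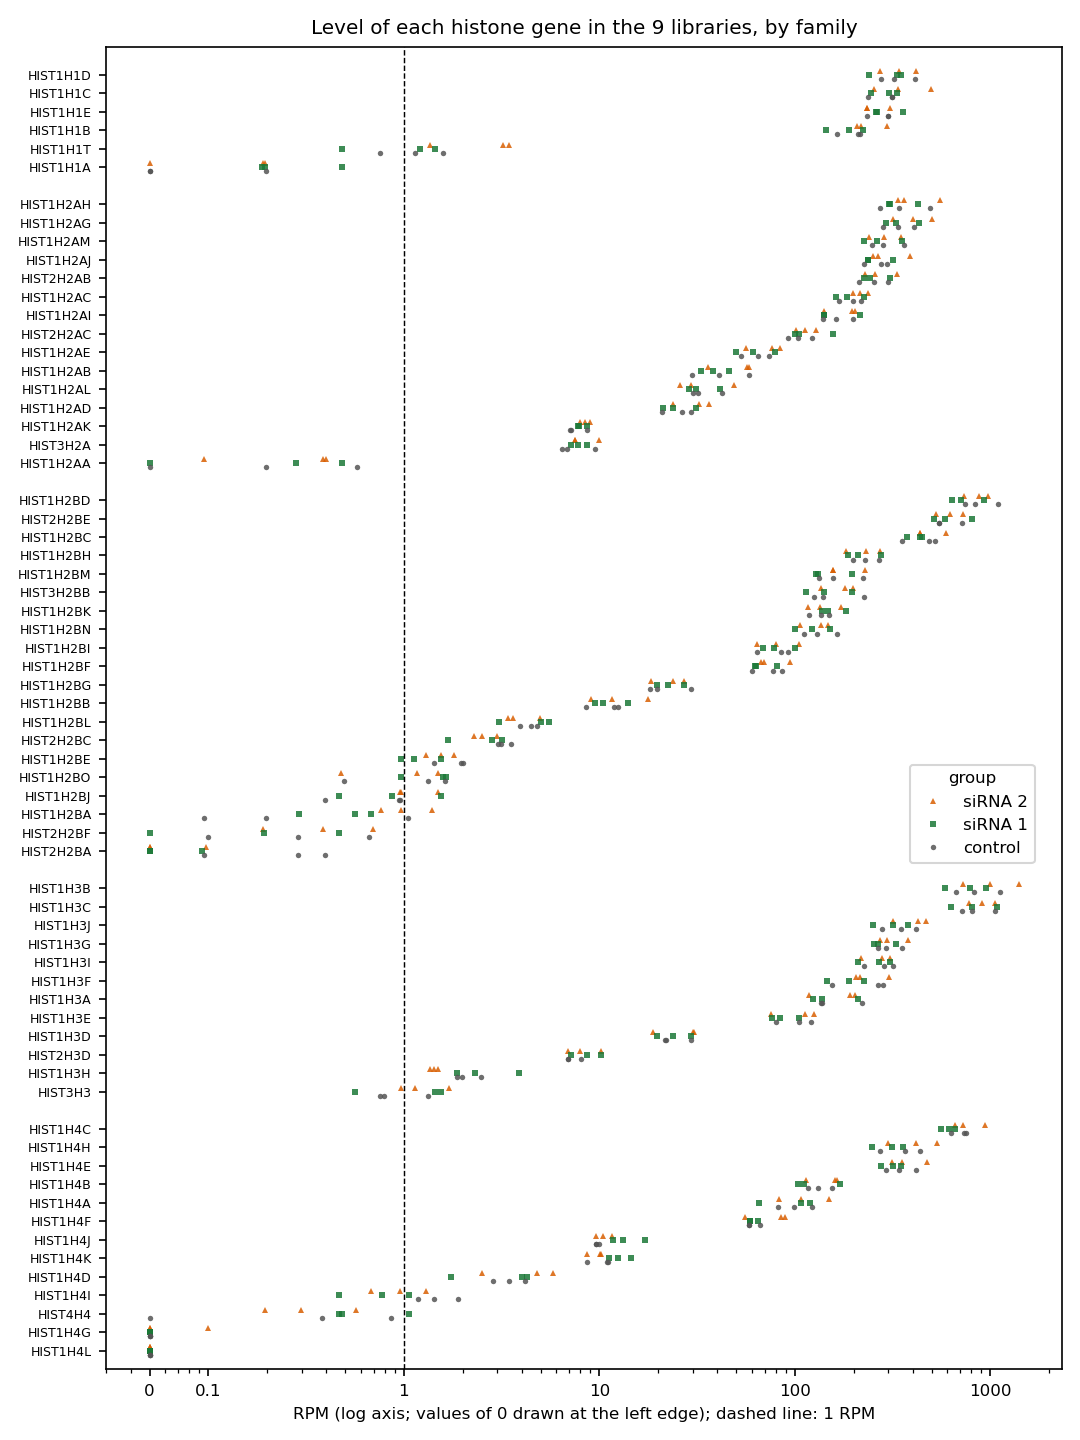
RPM of each of the 66 histone genes in the 9 libraries, by family and ordered by mean level; each mark is 1 library, the horizontal axis is logarithmic, and the dashed line is the 1 RPM limit for testing. Levels span from 0 to 1394 RPM within the set, while the 9 marks of an abundant gene lie close together and the 3 groups overlap.

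The H3 genes held the highest single levels. HIST1H3B (H3C2 in current nomenclature), which encodes the canonical histone H3.1, had 999, 727 and 1394 RPM with siRNA 2, 945, 584 and 790 RPM with siRNA 1, and 1122, 671 and 829 RPM with control. HIST1H3C (H3C3), another H3.1 gene, had 1060, 775 and 907 RPM with siRNA 2, 1078, 627 and 804 RPM with siRNA 1, and 1061, 712 and 808 RPM with control. For both genes, replicate 2 was the lowest library in each group, and the ranges of the groups overlapped. All 12 H3 genes reached 1 RPM, and the family median of mean levels was 193 RPM. The lowest H3 gene was HIST3H3, a testis H3 variant on chromosome 1, with a mean of 1.14 RPM.

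The H2B genes ran from the top of the set to the limit of detection. HIST1H2BD (H2BC5) had 969, 734 and 871 RPM with siRNA 2, 930, 637 and 712 RPM with siRNA 1, and 1093, 745 and 832 RPM with control. HIST2H2BE (H2BC21), of the chromosome 1 cluster, had 723, 527 and 619 RPM with siRNA 2, 806, 515 and 587 RPM with siRNA 1, and 717, 546 and 545 RPM with control. Both genes were highest in replicate 1 of every group, and their groups overlapped. Of the 20 H2B genes, 8 had at least 100 RPM and 4 stayed under 1 RPM. HIST1H2BJ, at a mean of 0.955 RPM, was the gene just under the limit for testing, with 1.497, 0.969 and 0.954 RPM with siRNA 2, 1.54, 0.871 and 0.467 RPM with siRNA 1, and 0.954, 0.947 and 0.394 RPM with control.

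Among H2A genes, HIST1H2AH (H2AC12) had 552, 337 and 363 RPM with siRNA 2, 426, 303 and 307 RPM with siRNA 1, and 489, 271 and 341 RPM with control. HIST1H2AG (H2AC11) had 505, 316 and 402 RPM with siRNA 2, 432, 294 and 330 RPM with siRNA 1, and 407, 284 and 335 RPM with control. Again replicate 1 was the highest library of each group. The family median of mean levels was 114 RPM, and 14 of 15 genes reached 1 RPM. Of the H1 genes, HIST1H1D (H1-3) had 342, 273 and 415 RPM with siRNA 2, 348, 238 and 332 RPM with siRNA 1, and 409, 277 and 321 RPM with control. HIST1H1C (H1-2), a somatic linker histone, had 336, 255 and 498 RPM with siRNA 2, 332, 247 and 305 RPM with siRNA 1, and 313, 238 and 315 RPM with control. In HIST1H1C the third siRNA 2 library stood above the other 8. The other 2 H1 genes over 100 RPM were HIST1H1B and HIST1H1E, while HIST1H1T, which encodes the testis linker histone, had a mean of 1.62 RPM.

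The H4 genes encode nearly or fully the same protein, apart from HIST1H4G, whose coding sequence has 297 bases against 312 in the others. Within the family HIST1H4C gave more signal than any other gene. HIST1H4C, H4C3 in current nomenclature, had 725, 658 and 935 RPM with siRNA 2, 616, 562 and 659 RPM with siRNA 1, and 735, 627 and 748 RPM with control. HIST1H4H (H4C8) had 418, 298 and 536 RPM with siRNA 2, 358, 249 and 314 RPM with siRNA 1, and 434, 273 and 365 RPM with control. The siRNA 1 libraries of HIST1H4C lay low but overlapped both other groups. The family median of mean levels was 11.4 RPM, and 3 of 13 genes stayed under 1 RPM. HIST1H4L had no read in any library and HIST1H4G had 1 read in 1 library. The gene just above the limit for testing was HIST1H4I, with a mean of 1.08 RPM.

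Some levels cannot be given to 1 gene with certainty, because histone genes are near copies of each other. The coding sequences of HIST1H4J and HIST1H4K were identical over all 312 bases, so an amplicon inside them could not tell the genes apart, and HIST1H2AI and HIST1H2AJ shared a run of 332 bases. HIST2H2BE shared a run of 140 bases with HIST2H2BF, and HIST1H2BN a run of 104 bases with HIST1H2BE. In all, 8 genes shared a run of at least 100 bases with another. HIST1H4I lies within the bounds of HIST1H2BK on the opposite strand, and HIST1H2AD overlaps HIST1H3D on the same strand. The position of each amplicon was not used here, so which of these levels hold reads of both genes was not tested.

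Genes that start back to back had levels far apart in some pairs and close in others. In 12 pairs of an H2A and an H2B gene the start sites lay 194 to 248 bp apart on opposite strands, and in 5 of the 12 pairs the mean levels in RPM differed by more than 10-fold. The widest gap was between HIST1H2AG, with a mean of 367 RPM, and HIST1H2BJ, with 0.955 RPM, whose starts are 248 bp apart, a ratio of 384. HIST1H2AM had 290 RPM beside 1.197 RPM for HIST1H2BO, a ratio of 242. In these 2 pairs the H2A gene was the higher one, whereas HIST3H2BB, with 162 RPM, stood over HIST3H2A, with 7.91 RPM, and HIST1H2BN, with 130 RPM, over HIST1H2AK, with 8.07 RPM. In 6 of the 12 pairs the ratio was 3 or less, as for HIST1H2AJ with 276 RPM and HIST1H2BM with 168 RPM. Among these pairs were HIST1H2AA and HIST1H2BA, both under 1 RPM, at 0.268 and 0.666 RPM. The promoter windows of HIST1H2AG and HIST1H2AM printed above span the gap to the lower partner, and both hold an octamer, CCAAT boxes and a TATA box. Each of these ratios also holds the unequal yield of 2 amplicons, which was not tested.

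**Figure D2:**
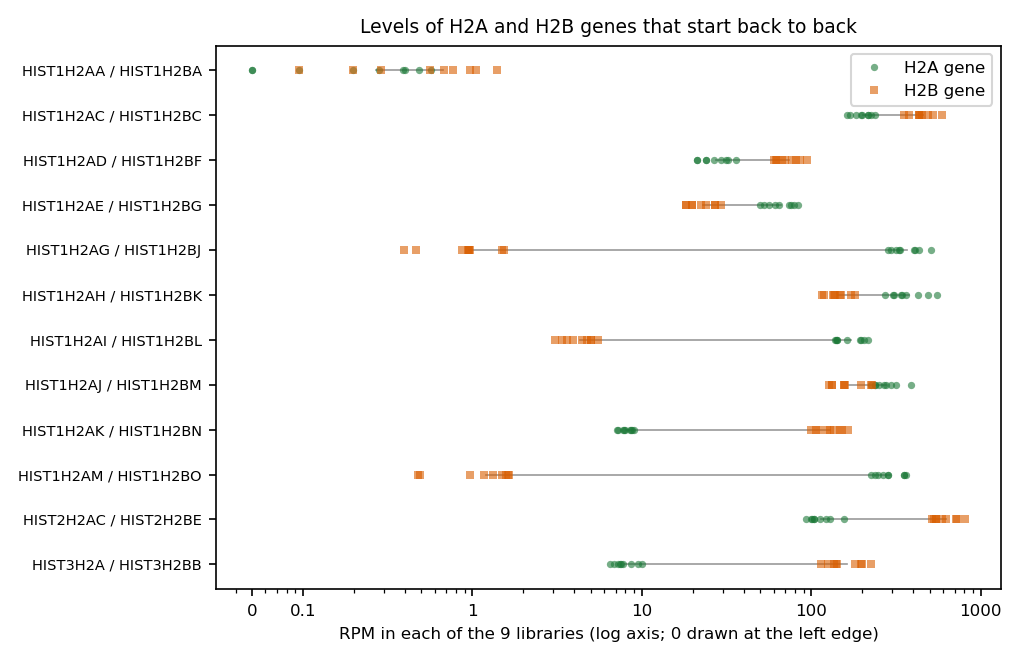
RPM in each of the 9 libraries for 12 pairs of H2A (circles) and H2B (squares) genes whose starts lie back to back, on a logarithmic axis with the pair means joined by a line. In 5 pairs the marks of the 2 genes lie more than 10-fold apart in mean level, up to a ratio of 384.

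The comparison of the siRNAs asked whether lowering PVRL4 moved these genes. The summed level of the 66 genes was 13418, 9843 and 12957 RPM with siRNA 2, 12629, 8751 and 10254 RPM with siRNA 1, and 13332, 9261 and 10982 RPM with control. The means were 12073 ± 1945, 10545 ± 1956 and 11191 ± 2044 RPM (SD, n = 3 each), in the same order of groups. The differences between these group means were smaller than the unpaired spread within each group, and in each group replicate 1 was the highest and replicate 2 the lowest. Libraries with the same replicate number deviated together. Within the numbers the summed level, as deposited, differed in 1 direction in each comparison. In replicates 1, 2 and 3, siRNA 2 minus siRNA 1 was 789, 1093 and 2703 RPM, siRNA 2 minus control was 86.7, 583 and 1976 RPM, and siRNA 1 minus control was -703, -510 and -727 RPM. The direction for siRNA 2 against control did not hold under median-of-ratios scaling, with 13300 RPM against 13511 RPM for control in replicate 1. By family, as deposited, siRNA 2 minus control in replicate 1 was -43.6 RPM for H2B, -160 RPM for H3 and -73.6 RPM for H4. It was 47.8 RPM for H1 and 316 RPM for H2A. With 3 pairs an exact two-sided test of sign changes cannot give a p under 0.25. For the H4 genes the mean sums were 1934 ± 415 RPM with siRNA 2, 1553 ± 191 RPM with siRNA 1 and 1732 ± 231 RPM with control (SD, n = 3 each), so that the gap between the siRNAs was wider than the SD of siRNA 1 and narrower than that of siRNA 2.

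**Figure D3:**
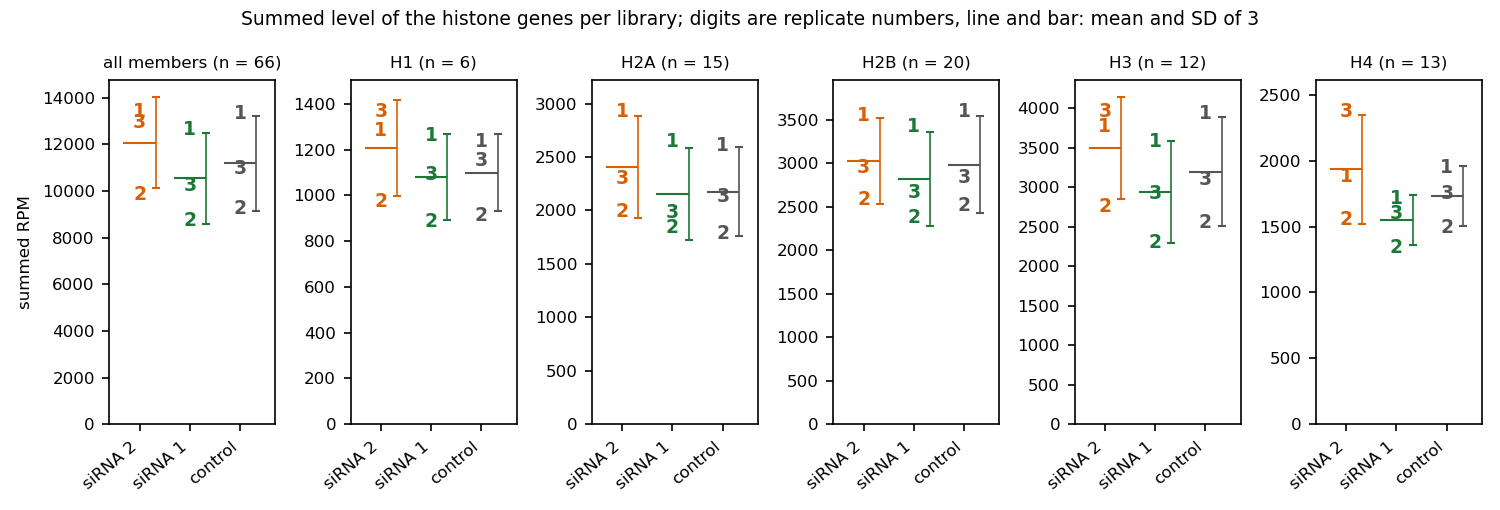
Summed RPM of all 66 histone genes and of each family in each library, with the replicate number as the mark, a line at the group mean and a bar of 1 SD (n = 3). Replicate 2 is the lowest of its group in every panel, with sums over the 66 genes of 9843 RPM with siRNA 2, 8751 RPM with siRNA 1 and 9261 RPM with control, and the groups overlap in the panel of all genes.

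No histone gene passed the test between groups when all 11158 genes averaging 1 RPM or more were tested in 1 fit of log2(RPM + 1) with limma. With siRNA 2 against control, 0 of 57 histone genes were called, against 0.681% of all genes tested, and 1 had an unadjusted p under 0.05, against 9.42% of all genes. With siRNA 1 against control, 0 of 57 were called, against 0.851% of all genes, and 2 had an unadjusted p under 0.05, against 6.04%. Between the siRNAs (siRNA 2 against siRNA 1), 0 of 57 were called, against 3.05% of all genes, and 6 had an unadjusted p under 0.05, against 15.1%. The count tests of edgeR and DESeq2 on the recovered reads, without a block, also called 0 in each comparison. The standard errors of the histone genes had a median of 0.18 on the log2 scale, so small changes could not be detected by this fit.

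The estimates themselves leaned in different directions. Against control, siRNA 2 gave a median log2 change of 0.10 over the 57 genes, with 43 above 0 (45.4% of all genes were), where the median over all genes tested was -0.02. Against control, siRNA 1 gave a median of -0.06, with 20 of 57 above 0 (53.9% of all genes), where the median of all genes was 0.01. Between the siRNAs, siRNA 2 against siRNA 1 gave a median of 0.15, with 46 of 57 above 0 (42.9% of all genes), where the median of all genes was -0.04. Within the 3 replicate numbers, 25 of the 57 genes were higher with siRNA 2 than with siRNA 1 in all 3, against 17.2% of all genes. For siRNA 2 against control 17 of 57 were higher in all 3, against 14.7% of all genes, and for siRNA 1 against control 17 of 57 were lower in all 3, against 16.1% of all genes. These comparisons share libraries, and the genes of the set are not independent of each other. Without the block, the median for siRNA 2 against control turned to -0.02 when siRNA 2 replicate 1 was left out and to -0.0049 without control replicate 2. That for siRNA 1 against control turned to 0.07 without control replicate 1 or without siRNA 1 replicate 2, and ran down to -0.20 without siRNA 1 replicate 1, while that for siRNA 2 against siRNA 1 kept its sign, at 0.04 to 0.29.

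**Figure D4:**
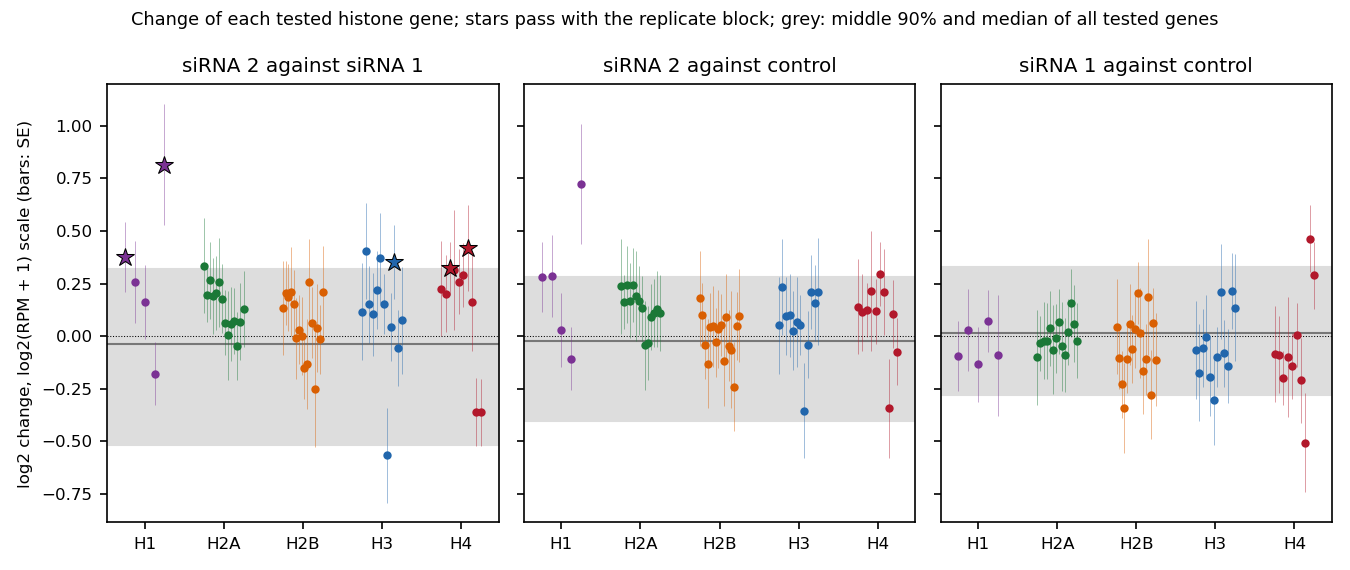
Log2 change of the 57 tested histone genes by family in the 3 comparisons, on the log2(RPM + 1) scale, with the standard error as a bar; the grey band holds the middle 90% of all genes tested and the grey line their median. Most histone genes lie above the line for siRNA 2 against siRNA 1, where the 5 starred genes pass with the replicate number as a block.

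The libraries with the same replicate number deviated together, and taking that number as a block in the fit changed the result for 1 comparison. For siRNA 2 against siRNA 1, 5 of the 57 histone genes were then called, all higher with siRNA 2, against 2.81% of all genes called higher and 6.52% called lower. Against control the block gave 0 of 57 for siRNA 2 (3.41% of all genes) and 0 of 57 for siRNA 1 (1.85%). The 5 genes were chosen for the text after their values were seen. The block fit favours genes whose difference agrees over the replicate numbers, so such agreement is no separate support for these calls. When edgeR was fitted with the block, 7 were called.

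HIST1H3J (H3C12), an H3.1 gene, had 467, 318 and 425 RPM with siRNA 2 and 380, 251 and 317 RPM with siRNA 1, beside 417, 279 and 350 RPM with control. The ranges overlapped, but siRNA 2 was higher than siRNA 1 within each replicate number. Its log2 change was 0.35 (adjusted p = 0.00561 with the block and 0.367 without it, limma). HIST1H1B (H1-5), a linker histone gene expressed in dividing cells, had 294, 208 and 218 RPM with siRNA 2 and 224, 144 and 189 RPM with siRNA 1, beside 210, 165 and 214 RPM with control. The log2 change was 0.38 (adjusted p = 0.0159 with the block, 0.302 without it, limma).

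The H4 genes HIST1H4H and HIST1H4C, with the values given above, had log2 changes of 0.42 and 0.32 for siRNA 2 against siRNA 1 (adjusted p = 0.0164 and 0.0204 with the block, 0.348 and 0.226 without it, limma). In both, siRNA 2 was higher in each of the 3 replicate numbers, with the widest gap in replicate 3: 0.77 for HIST1H4H and 0.50 for HIST1H4C. HIST1H1T had 3.19, 1.36 and 3.43 RPM with siRNA 2 and 1.45, 0.484 and 1.21 RPM with siRNA 1, beside 1.145, 0.758 and 1.58 RPM with control. Its log2 change was 0.82 (adjusted p = 0.0234 with the block, 0.168 without it, limma), at a level of 3.43 RPM or less in every library. The count of calls changed most with the libraries of replicate 3. Without the siRNA 1 library of replicate 3 the block fit called 0 histone genes, and without the siRNA 2 library of replicate 3 the fit called 3. For HIST1H1B, though, the gap between the siRNAs was narrowest in replicate 3, at 218 against 189 RPM. With other libraries left out the block fit called 4 to 6.

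A few genes leaned the other way without passing the test. HIST1H4J had 10.48, 11.6 and 9.64 RPM with siRNA 2, 17.1, 11.7 and 13.2 RPM with siRNA 1, and 9.93, 9.66 and 9.66 RPM with control. All 3 siRNA 1 libraries lay above all 6 others, though barely in replicate 2, at 11.716 against 11.629 RPM with siRNA 2, where 1 read was worth about 0.1 RPM. The log2 change of HIST1H4J for siRNA 1 against control was 0.46 ± 0.16 (SE), with an adjusted p of 0.423 (limma). HIST1H4K, the gene with the same coding sequence, had 10.2, 10.1 and 8.68 RPM with siRNA 2, 14.6, 12.4 and 11.2 RPM with siRNA 1, and 8.69, 10.99 and 11.04 RPM with control (log2 change 0.29 for siRNA 1 against control, adjusted p = 0.969, limma). The pair may be read by shared reads, so these are not 2 separate observations. HIST1H3H had 1.497, 1.36 and 1.43 RPM with siRNA 2, 3.86, 2.32 and 1.87 RPM with siRNA 1, and 2.48, 1.99 and 1.87 RPM with control, and its siRNA 2 libraries lay under all others. Its log2 change for siRNA 2 against siRNA 1 was -0.57 ± 0.22 (SE, adjusted p = 0.234, limma). Of the 57 genes, 2 were higher without overlap for siRNA 1 against control, HIST1H4J and HIST1H4K, where 6.4% of all genes were. By contrast, HIST1H4I leaned as most of the set did, with 37 of the 57 estimates below 0 for siRNA 1 against control. It was lower without overlap in that comparison, where 5.59% of all genes were. HIST1H4I had 0.773, 1.065 and 0.467 RPM with siRNA 1 and 1.43, 1.90 and 1.18 RPM with control, beside 1.30, 0.678 and 0.954 RPM with siRNA 2. At -0.51 ± 0.23 (SE) its log2 change was the farthest from 0 among the histone genes in that comparison (adjusted p = 0.814, limma). Between the siRNAs, 3 were lower with siRNA 2 without overlap, HIST1H4J, HIST1H4K and HIST1H3H, where 12.6% of all genes were.

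Among the other genes in the lead, HIST1H4F had 85.1, 55.6 and 88.7 RPM with siRNA 2, 64.9, 59.3 and 59.0 RPM with siRNA 1, and 66.1, 58.1 and 58.5 RPM with control (log2 change 0.30 for siRNA 2 against control, adjusted p = 0.588, limma). Replicates 1 and 3 of siRNA 2 lay above the rest, and replicate 2 below them. HIST1H3F, an H3.1 gene, had 205, 216 and 304 RPM with siRNA 2, 188, 146 and 225 RPM with siRNA 1, and 283, 156 and 265 RPM with control, with overlap between all groups. HIST1H1E, a further somatic linker histone, had 307, 234 and 234 RPM with siRNA 2, 356, 259 and 264 RPM with siRNA 1, and 301, 233 and 300.3 RPM with control. HIST1H2BK had 172, 116 and 134 RPM with siRNA 2, 182, 147 and 138 RPM with siRNA 1, and 149, 136 and 118 RPM with control. For these 3 genes no adjusted p was under 0.05 in any of the 3 comparisons, with or without the block (limma).

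More histone genes differed between replicate numbers than between siRNAs. Averaged over the 3 groups, the summed level was 13126 RPM in replicate 1, 9285 RPM in replicate 2 and 11398 RPM in replicate 3, and replicate 1 was 1.41 times replicate 2. In the fit with group and replicate number as terms, a comparison added after the data were seen, 38 of the 57 histone genes were higher in replicate 1 than in replicate 2 and 0 were lower, against 1.65% and 2.66% of all genes tested. The median log2 difference was 0.48 over the histone genes and -0.01 over all genes. The histone genes are 0.511% of the genes tested and made 20.7% of the 184 genes higher in replicate 1. What the replicate number stands for, such as a culture or a day, is not given in the sources used here.

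All families took part in the difference between replicates 1 and 2. It was called for 4 of 5 tested H1 genes, 12 of 14 H2A, 11 of 16 H2B, 8 of 12 H3 and 3 of 10 H4 genes. HIST1H2AH averaged 489 RPM in replicate 1 and 304 RPM in replicate 2 (log2 difference 0.68 ± 0.08 SE, adjusted p = 0.000234, limma). HIST3H2BB, on chromosome 1, averaged 208 RPM in replicate 1 and 125 RPM in replicate 2 (log2 difference 0.73 ± 0.09 SE, adjusted p = 0.000411, limma). HIST1H4C, the leading H4 gene, had a log2 difference of 0.17 with an adjusted p of 0.281 (limma) in the same comparison. In all 3 groups alike, 49 of 57 histone genes were higher in replicate 1 than in replicate 2, against 19.2% of all genes. The siRNA 2, siRNA 1 and control libraries of replicate 1 had 47, 57 and 52 of the 57 genes above their group mean, and those of replicate 2 had 5, 5 and 6.

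**Figure D5:**
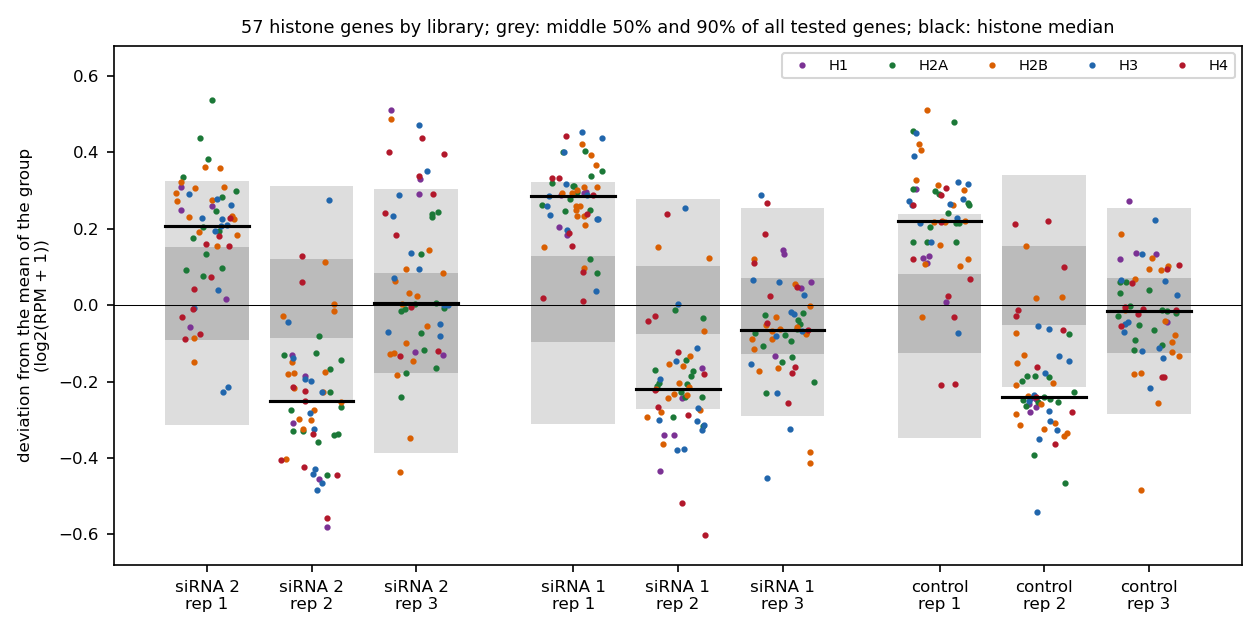
Deviation of the 57 histone genes from their group mean in each library, in log2(RPM + 1), coloured by family, with the histone median as a black line and the middle 50% and 90% of all tested genes in grey. The histone median is 0.21, 0.29 and 0.22 in replicate 1 of siRNA 2, siRNA 1 and control, and -0.25, -0.22 and -0.24 in their replicate 2.

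In the summed level of all histone genes, replicate 3 lay between. For the H4 genes the sum averaged over groups was highest in replicate 3, at 1909 RPM, against 1849 RPM in replicate 1 and 1461 RPM in replicate 2. In replicate 1 against replicate 3, 17 of 57 histone genes were higher and 0 lower (5.18% and 3.75% of all genes), among them 7 H2A and 8 H2B genes but none of H1 or H4. In replicate 3 against replicate 2, 10 were higher and 0 lower (0.717% and 1.93% of all genes), with 2 H1, 5 H3 and 3 H4 genes and none of H2A or H2B. These counts rest on few libraries. With 1 library left out, the count for replicate 1 against replicate 2 ran from 18 (without siRNA 2 replicate 2) to 39 and was 22 without control replicate 1 and 25 without siRNA 1 replicate 2. The count for replicate 1 against replicate 3 ran from 3 (without siRNA 1 replicate 3) to 18, and was 4 without siRNA 1 replicate 1, 8 without control replicate 3 or siRNA 2 replicate 1, and 11 without control replicate 1. The count for replicate 3 against replicate 2 ran from 1 (without control replicate 2 or siRNA 2 replicate 2) to 13, and was 3 without siRNA 2 replicate 3, 4 without siRNA 1 replicate 3, 5 without siRNA 1 replicate 2 and 6 without control replicate 3.

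Some genes of DNA replication and mitosis were called between replicate numbers too. Of 38 tested S phase genes, 9 were higher in replicate 1 than in replicate 2, and of 30 mitosis genes 6 were, where 1.65% of all genes were. In replicate 1 against replicate 3, 15 of 38 S phase and 5 of 30 mitosis genes were higher, where 5.18% of all genes were. Their median log2 differences for replicate 1 against replicate 2 were 0.23 and 0.25, where that of the histone genes was 0.48. In replicate 3 against replicate 2, 0 of 38 S phase genes were higher and 13 had an estimate above 0, beside 4269 of all 11158 genes. Of the 30 mitosis genes 2 were higher and 23 had an estimate above 0, with a median log2 difference of 0.14, and 46 of 57 histone genes had an estimate above 0. In bulk RNA, more cells in S phase and more histone RNA in each such cell cannot be told apart, and their part in these differences was not tested.

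The siRNA 2 library of replicate 3 stood apart from the other 2 libraries of its replicate number in a part of the genes. Over the 45 histone genes with at least 10 RPM, the log2 difference from the mean of the siRNA 1 and control libraries of replicate 3 ran from -0.34 (HIST1H2BI) to 0.78 (HIST1H3B), with a standard deviation over genes of 0.28, where that in replicates 1 and 2 was 0.16 in each. HIST1H1C and HIST1H4H followed with 0.68 and 0.66. The median was 0.53 for 8 H4 genes and 0.31 for 9 H3 genes, all 9 of which were above 0, against 0.17 for 12 H2A and 0.12 for 12 H2B genes. The medians of the H4 and H3 genes were -0.06 and -0.01 in the siRNA 2 library of replicate 1, and 0.13 and 0.07 in that of replicate 2. These are values of 1 library each, with no test.

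Genes that control histone expression were looked at in the same fits. Of 31 tested genes for histone transcription and 3′ end processing, 0 were called in any of the 3 comparisons by limma without the block. At an unadjusted p under 0.05 were 2 for siRNA 2 against control, 0 for siRNA 1 against control and 3 between the siRNAs. Of all genes, 0.681%, 0.851% and 3.05% were called in the same order. An unadjusted p under 0.05 was found for 9.42%, 6.04% and 15.1% of all genes. SLBP had 57.5, 50.8 and 43.3 RPM with siRNA 2, 56.2, 44.8 and 38.3 RPM with siRNA 1, and 51.7, 47.0 and 43.6 RPM with control, with overlap of all groups. NPAT had 29.7, 24.2 and 27.9 RPM with siRNA 2, 33.4, 31.6 and 29.9 RPM with siRNA 1, and 36.5, 32.6 and 30.3 RPM with control. All siRNA 2 values of NPAT lay under the control values, with an adjusted p of 0.527 (limma). CASP8AP2, known as FLASH, which takes part in histone pre-mRNA processing, averaged 25.3 ± 4.0 RPM with siRNA 2, 23.7 ± 0.8 with siRNA 1 and 24.3 ± 4.5 with control (SD, n = 3 each).

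With the block, 2 genes of that list were called higher for siRNA 2 against siRNA 1, where 2.81% of all genes were. E2F1, a transcription factor of the G1 to S phase transition, had 132, 121 and 114 RPM with siRNA 2 and 104, 85.3 and 88.5 RPM with siRNA 1 (log2 change 0.40, adjusted p = 0.00709 with the block, 0.130 without it, limma). CDK2, the kinase partner of cyclin E, had 130, 123 and 119 RPM with siRNA 2 and 112, 92.0 and 90.1 RPM with siRNA 1 (log2 change 0.34, adjusted p = 0.0238 with the block, 0.122 without it, limma). In both genes siRNA 2 was higher than siRNA 1 in each replicate number, as it was for 17.2% of all genes. For the same comparison the block called 2 of 38 S phase genes and 5 of 30 mitosis genes higher, beside 2.81% of all genes. CDK1, the mitotic kinase, was among the 5 (log2 change 0.45, adjusted p = 0.00848 with the block, limma). For siRNA 2 against control the block called 2 of the 38 S phase genes lower and 0 higher, where 3.41% of all genes were called in either direction. The 2 lower genes were MCM3 (log2 change -0.43, adjusted p = 0.0267 with the block, limma) and MCM10 (-0.35, adjusted p = 0.0466), whose products take part in starting DNA replication. Each was lower in 3 of 3 replicate numbers, which the block fit favours.

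Where 3.05% of all genes were called between the siRNAs without the block, 1 of 20 genes of histone mRNA decay was, lower with siRNA 2 than with siRNA 1. It was XRN1, the 5′ to 3′ exonuclease, with 26.3, 25.6 and 23.9 RPM with siRNA 2 and 38.7, 38.2 and 36.0 RPM with siRNA 1 (log2 change -0.56 ± 0.13 SE, adjusted p = 0.0269, limma), beside 28.8, 38.0 and 30.8 RPM with control. The siRNA 2 values lay under the siRNA 1 values without overlap, as they did for 12.6% of all genes. With the block, 3 of the 20 were lower, DCP1A and EXOSC3 being the others, where 6.52% of all genes were. For siRNA 2 against control the block called 2 of the 20 lower, DCP1A and EXOSC3, where 3.41% of all genes were called in either direction. Of 30 histone chaperone genes, 0 were called without the block in any comparison. At an unadjusted p under 0.05 were 4 for siRNA 2 against control, 2 for siRNA 1 against control and 5 between the siRNAs, where 9.42%, 6.04% and 15.1% of all genes were. With the block, ATRX, a chromatin remodeller, was lower for siRNA 2 against control (log2 change -0.51, adjusted p = 0.0119, limma). ANP32E, a chaperone of H2A.Z, was higher for siRNA 2 against siRNA 1 with the block (log2 change 0.40, adjusted p = 0.028, limma). ATRX and ANP32E were the only genes of the 30 called with the block. In these comparisons the block called 3.41% of all genes in either direction and 2.81% higher.

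Histone genes outside the replication clusters, most of which are expressed through the cell cycle and carry poly(A) tails, were set beside them. Of 10 tested, 0 were called without the block in the 3 comparisons. In the same order, 0, 2 and 2 had an unadjusted p under 0.05, where 9.42%, 6.04% and 15.1% of all genes did. With the block, 1 of the 10, H2AFV, was higher for siRNA 2 against siRNA 1 (log2 change 0.36, adjusted p = 0.0173, limma), where 2.81% of all genes were. Between replicate numbers, 0 of the 10 were higher in replicate 1 than in replicate 2 and 1 was higher in replicate 1 than in replicate 3, where 1.65% and 5.18% of all genes were. H2AFZ, the H2A.Z variant gene, had 1233, 1232 and 1535 RPM with siRNA 2, 1163, 1056 and 1149 RPM with siRNA 1, and 1495, 1151 and 1312 RPM with control. H3F3A and H3F3B, which encode H3.3, averaged 698 ± 75 and 637 ± 56 RPM with siRNA 2, 695 ± 21 and 581 ± 83 RPM with siRNA 1, and 667 ± 13 and 542 ± 34 RPM with control (SD, n = 3 each). H1F0, the linker histone of resting cells, averaged 266 ± 18 RPM with siRNA 2, 260 ± 10 with siRNA 1 and 245 ± 24 with control, and H2AFX, whose product marks DNA breaks when phosphorylated, averaged 52.2 ± 15.3, 55.8 ± 11.6 and 52.5 ± 10.1 RPM in the same order (SD, n = 3 each).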

How the data were processed

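The values used are those of 1 deposited RPM table (reads scaled by the authors to a common library total) covering 9 libraries. The build is hg19, per the submitters' processing notes, and no aligner or counter is given in the sources used here. In 8 of the 9 columns steps of 1 read were read off the RPM values and whole counts were recovered from the deposited values (100% of values whole within 0.1 read, below 200 RPM), and the ninth gave the same with the same method. RPM values carry no gene length and shift when abundant genes change.

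Changes were fitted with limma 3.58.1 (R 4.3.3) with a mean trend on log2(RPM + 1) over the 9 libraries and 11158 genes averaging 1 RPM or more, p-values were adjusted by Benjamini-Hochberg over all of them, and 0.05 was the threshold. The recovered counts were tested with edgeR 4.0.16 and DESeq2 1.42.0 as alternatives. Other alternatives were the pseudocount, the filter, 3 scalings, a fit without a trend, the 6 libraries compared alone, each library left out and the replicate number as a block. Libraries with the same number deviated together. Over all genes, deviations from group means correlated at r = 0.252 to 0.417 for the 9 same-number pairs and at -0.340 to -0.0275 for the 18 others. Deviations within a group sum to 0, so positive values for same-number pairs push the others below 0, and this contrast is partly built in. The limma fits, with and without the block, were tested on simulated counts that held no effect of the replicate number. The calls that depend on the block were therefore not tested under such an effect.

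Histone genes named in the text are the 2 with the highest mean in each family, up to 3 in each direction per comparison with the smallest unadjusted p among those of at least 10 RPM, those next to 1 RPM, and those past the threshold; from other lists, up to 2 per comparison and a set of known regulators were eligible. Genes called with the block, and HIST1H3H, were added after their values were seen. The members and lists were chosen with earlier results of these data known. Sequences come from RefSeq (GRCh38.p14) and GENCODE transcripts; all 66 symbols matched RefSeq. Coding sequences were taken as the longest open reading frame of a transcript.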

Additional observations from a re-analysis of the deposited data

Results flagged for a closer look

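For 5 histone genes the effects of the 2 siRNAs differed in a test of the difference itself, siRNA 2 minus siRNA 1 with the replicate number as a block (limma, adjusted over 11158 genes). The log2 differences were 0.35 for HIST1H3J (adjusted p = 0.00561), 0.38 for HIST1H1B (0.0159), 0.42 for HIST1H4H (0.0164), 0.32 for HIST1H4C (0.0204) and 0.82 for HIST1H1T (0.0234). Each gene was higher with siRNA 2 in 3 of 3 replicate numbers, as were 17.2% of all genes. The block fit favours genes with such agreement, so it is no separate support. Without the block none of the 5 passed. Beside them, 314 genes in all, or 2.81% of those tested, were higher with siRNA 2 in this comparison. Of 30 mitosis genes 5 were called higher with the block. In the same fit 2 of 7 SKBR3 markers and 27 of 27 tested interferon genes were lower with siRNA 2 than with siRNA 1, where 6.52% of all genes were. The part of these genes in the result was not tested.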

How the results depend on the processing

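The count of 0 histone genes called for siRNA 1 against control held under all 31 alternatives run. For siRNA 2 against control it held except that the block fit with siRNA 2 replicate 2 or 3 left out called 1 (range over libraries left out 0 to 1). For siRNA 2 against siRNA 1 the replicate block gave 5 and edgeR with the block 7, while leaving out single libraries gave 0 to 6 with the block (3 without siRNA 2 replicate 3, 4 without siRNA 1 replicate 1 and 0 without siRNA 1 replicate 3) and 0 to 1 without it; the cause was not tested. The contrasts between replicate numbers fell to 22, 8 and 2 genes when no filter was set on low values, where more genes were tested, for replicates 1 against 2, 1 against 3 and 3 against 2. With single libraries left out they ran from 18 to 39, 3 to 18 and 1 to 13. Of the changes named, 11 values changed sign, all small and with libraries left out: SLBP ran from -0.187 to 0.0839 for siRNA 1 against control (0.0141 and 0.0027 with the block, without control or siRNA 1 replicate 3), -0.0124 to 0.188 for siRNA 2 against control and -0.000185 to 0.271 between the siRNAs, and for siRNA 2 against control HIST1H1E ran from -0.237 to 0.0201, HIST1H4K from -0.243 to 0.0537 and HIST1H2BD from -0.162 to 0.115 (0.021 with the block, without siRNA 2 replicate 1). Among the histone genes the block changed no call outside siRNA 2 against siRNA 1. The summed levels moved by less than 1 SD under other scalings and without HIST1H3B. Median-of-ratios scaling, though, turned the replicate 1 difference of siRNA 2 from control negative. Depth limits the 9 genes under 1 RPM, for which no change was tested.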
